A study of Homo sapiens with 42 samples.

Results

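The plasminogen activation system was described through 5 genes, taken by symbol from the 60609 genes counted in each library. No measured value entered that rule, but the genes were chosen with earlier results of these data known. They encode the activators uPA (PLAU) and tPA (PLAT), the uPA receptor uPAR (PLAUR) and the inhibitors protease nexin-1 (SERPINE2) and PAI-2 (SERPINB2). uPA and tPA are serine proteases that cut plasminogen into plasmin, a protease of broad specificity that dissolves fibrin and degrades extracellular matrix. uPAR holds uPA at the cell surface, and the serpins protease nexin-1 and PAI-2 trap the activators in covalent complexes, which LRP1 and related endocytic receptors clear. In the kidney uPA is made by tubular epithelium, and in carcinomas the uPA and uPAR pair is known for its part in pericellular proteolysis and invasion.

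PLAU lies on chromosome 10 at 73909177 to 73917496 (plus strand), PLAT on chromosome 8 at 42174718 to 42207709 (minus strand) and PLAUR on chromosome 19 at 43646095 to 43670547 (minus strand), in hg38 with the positions of GENCODE release 44. SERPINE2 lies on chromosome 2 at 223975045 to 224039318 (minus strand) and SERPINB2 on chromosome 18 at 63871692 to 63903888 (plus strand). Each value below is a sum of the reads assigned to the exons of the gene. Of the 2949 exonic bases of PLAU, 915 overlap the antisense gene C10orf55. Per the methods of the study, HTSeq counted without strand in union mode, which assigns a read that overlaps several genes to none. Reads in that stretch are thus left out of PLAU. Its level per kilobase is still divided by all 2949 bases and may be too low. The counts were made on an earlier GENCODE release, in which exons and overlaps may differ. C10orf55 itself held means of 46.5 to 102 normalized counts per group. SERPINB2 shares 547 exonic bases with another gene of the same strand, ENSG00000289724.

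All 42 libraries were poly-A RNA-seq of 786-O cells, an established clear cell renal cell carcinoma line in which VHL is inactivated, HIF-2α is stabilised and functional HIF-1α is missing. A HIF-α subunit pairs with HIF-1β and binds DNA as a dimer. The first batch held 27 libraries, 3 for each of 9 groups. They were WT cells, 1 homozygous clone with endogenous HIF-1β tagged with V5 and Halo (HIF-1β KIN), 1 homozygous clone with endogenous HIF-2α tagged the same way (HIF-2α KIN), and 6 stable lines in which an L30 promoter drives a V5-Halo-tagged transgene on top of endogenous HIF-2α. The transgenes were HIF-1α, its DNA-binding mutant HIF-1α R30E, its dimerization mutant HIF-1αDM (R170A-V191D), HIF-2α, its DNA-binding mutant HIF-2α R27E and its dimerization mutant HIF-2αDM (R171A-V192D). A second batch of 15 libraries, again 3 to a group, covered WT cells, both functional transgenes and 2 chimeras of them. HIF-2α/1α joins residues 1 to 365 of HIF-2α, its structured N-terminal part, to residues 364 to 826 of HIF-1α, the part with its intrinsically disordered regions (IDR). HIF-1α/2α joins residues 1 to 363 of HIF-1α to residues 366 to 870 of HIF-2α. Per the methods of the study, the transgenic lines were made by transposon insertion, selected with puromycin and kept in selection medium. No group carried the vector without a HIF-α. Differences of these lines from WT cells therefore cannot be told apart from those due to insertion, selection or the tag. The knock-in groups are 1 clone each, and their differences from WT cells cannot be told apart from differences between clones. Each transgene likewise stands as 1 group of 3 libraries in a batch. Its effects cannot be told apart from other differences between stable lines.

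The libraries of the first batch held 42377599 to 101186554 counted reads and those of the second 76366799 to 109642159. Of 7 renal and clear cell carcinoma markers, 5 exceeded 1 CPM/kb (the CPM of a gene, its counts scaled to library size, per kilobase of exon) in all 42 libraries, NDUFA4L2 was under 1 in all, and CA9 ranged from 0 to 43.0. The 3 leukocyte and 3 endothelial markers were under 1 CPM/kb in every library. Of the fibroblast markers, PDGFRB, COL1A1 and LUM reached 2.85, 4.15 and 1.34 CPM/kb at most. The targeted genes followed the labels, with 2 points that touch the results below. HIF1A had a mean of 3036 normalized counts in the HIF-1α line of the first batch and 243 in WT cells, but it also stood at 920 in the HIF-2α line. EPAS1, the HIF-2α gene, had a mean of 6159 normalized counts in HIF-2α KIN against 14547 in WT cells (log2 fold change -1.24, adjusted p = 8.60e-05, edgeR). The HIF-2αDM libraries carry HIF-1α in their genotype field and HIF-2α in their title and description. Their mean EPAS1 count was 48508, and they were taken as HIF-2αDM.

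A gene was called in a comparison when edgeR's quasi-likelihood test, fitted to all groups of a batch, gave a Benjamini-Hochberg adjusted p of at most 0.01 over all genes tested and the fold change was at least 2. Counts were normalized within each batch to a common library size, and levels of different genes are compared per kilobase only.

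PLAU and SERPINE2 carry most of what follows, because one was lower and the other higher than in WT cells in all 12 comparisons of a line with its own WT. Their sequences before the transcription start are shown for that reason. Each run below is the 250 bases before a RefSeq start (GRCh38.p14), 5′ to 3′ on the strand of the gene, with capitals on the letters ACGTG or GCGTG, the core of the HIF response element, on either strand.

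PLAU, chr10:73910882-73911131, plus strand: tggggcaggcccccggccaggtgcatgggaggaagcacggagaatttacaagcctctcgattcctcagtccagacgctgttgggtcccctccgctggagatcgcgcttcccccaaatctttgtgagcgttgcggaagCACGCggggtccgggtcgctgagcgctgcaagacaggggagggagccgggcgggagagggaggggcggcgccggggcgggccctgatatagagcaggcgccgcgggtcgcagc

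SERPINE2, chr2:224031479-224031728, minus strand: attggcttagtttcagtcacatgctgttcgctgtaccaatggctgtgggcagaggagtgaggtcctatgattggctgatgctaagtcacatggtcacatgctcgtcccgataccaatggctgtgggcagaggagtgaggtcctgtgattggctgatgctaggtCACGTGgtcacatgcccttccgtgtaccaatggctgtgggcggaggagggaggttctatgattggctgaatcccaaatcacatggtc

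SERPINE2, chr2:224038641-224038890, minus strand: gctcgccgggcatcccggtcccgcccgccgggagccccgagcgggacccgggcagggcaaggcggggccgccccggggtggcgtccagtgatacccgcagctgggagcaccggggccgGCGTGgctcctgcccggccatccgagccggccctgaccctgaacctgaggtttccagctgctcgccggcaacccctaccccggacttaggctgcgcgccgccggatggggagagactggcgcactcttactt

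The PLAU window held 1 GCGTG, beginning 113 bases before the start, and a second RefSeq window of PLAU held neither core. In the first SERPINE2 window ACGTG occurred on both strands of 1 CACGTG, 87 bases before the start, and the second held 1 GCGTG 132 bases before its own. Of 35116 RefSeq windows of this length, 43.2% held ACGTG or GCGTG and 6.3% held CACGTG, so such letters are common. The letters AP-1 binds, TGANTCA, stood in the windows of PLAUR and SERPINB2, which also had 1 GCGTG and none, respectively, and in 6.6% of all windows. No binding was measured in these files, and a match is not a site.

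The uPA gene PLAU was the most abundant member in WT cells per kilobase, and among the 9 groups of the first batch its level was lowest in HIF-2α KIN and next lowest in the HIF-2α line. In the first batch the 3 WT libraries held 7958, 6990 and 6003 normalized counts, the HIF-2α KIN libraries 2865, 2668 and 1858, and the HIF-2α libraries 2931, 2937 and 3368. Every library of both lines lay below every WT library. PLAU fell by 1.50 on the log2 scale in HIF-2α KIN (SE 0.214, adjusted p = 1.67e-05, edgeR) and by 1.18 in the HIF-2α line (SE 0.212, adjusted p = 0.000240), and 4.11% and 5.73% of all 23410 genes tested were called in these comparisons.

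The other lines of the first batch held intermediate levels. HIF-1β KIN held 3844, 3799 and 3228 normalized counts and the HIF-1α line 4338, 3478 and 3866, all below the WT libraries. Their log2 differences from WT, -0.95 (SE 0.211, adjusted p = 0.00807) and -0.84 (SE 0.211, adjusted p = 0.00993), passed the p threshold, as did 1.78% and 4.83% of all genes, and stayed under a 2-fold change. Without the WT library numbered 3, HIF-1β KIN was at -1.06 and was called. The DNA-binding mutants had means of 4792 ± 477 in HIF-1α R30E and 4742 ± 1816 in HIF-2α R27E, the latter with 1 library of 2726 beside 6251 and 5250 (SD, n = 3).

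The dimerization mutants stood nearest to WT, with 5752 ± 881 counts in HIF-1αDM and 5599 ± 426 in HIF-2αDM against 6984 ± 977 in WT cells. None of the 4 mutants was called for PLAU (log2 differences -0.56 to -0.28, adjusted p 0.158 to 0.779). Against its own mutants, HIF-2α held less PLAU than HIF-2αDM by 0.86 on the log2 scale (95% interval -1.30 to -0.43, adjusted p = 0.00748). This change was under 2-fold and was not called, although it passed the p threshold with 5.40% of all genes. The HIF-2α libraries lay below all of those of HIF-2αDM, as they did for 13.4% of all genes. For HIF-2α against R27E the difference was -0.62 (interval -1.06 to -0.19, adjusted p = 0.0684), and -0.93 without the third R27E library. HIF-1α differed from HIF-1α R30E and HIF-1αDM by -0.30 and -0.56 (adjusted p 0.606 and 0.215). In these 4 comparisons of a functional HIF-α with a mutant, no member was called, where 1.75%, 1.36%, 3.66% and 3.99% of all genes were.

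**Figure D1:**
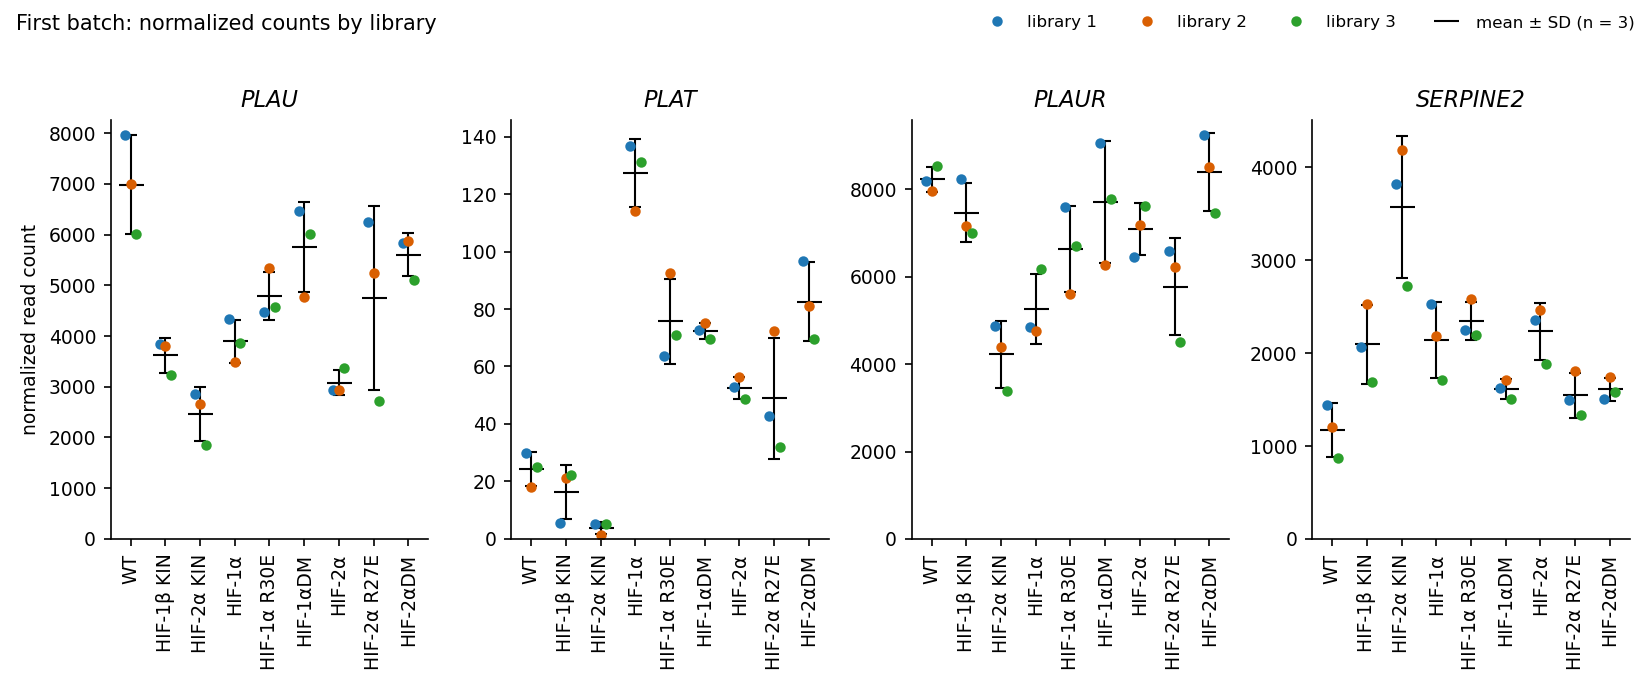
Normalized read counts of PLAU, PLAT, PLAUR and SERPINE2 (vertical axes, each from 0) in the 9 groups of the first batch, with 1 point per library and bars for the mean ± SD of 3 libraries. PLAU is highest in WT cells and lowest in HIF-2α KIN, PLAT is highest in the HIF-1α line, and SERPINE2 is lowest in WT cells and highest in HIF-2α KIN.

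The tPA gene PLAT was transcribed at a very low level and moved in opposite directions in the tagged clone and in the transgenic lines. WT cells of the first batch held 30.0, 18.1 and 25.0 normalized counts, a mean of 0.0467 CPM/kb beside 35.3 for PLAU. HIF-2α KIN held 5.20, 1.43 and 5.06, from 4, 1 and 6 reads, and PLAT fell there by 2.55 on the log2 scale (SE 0.480, adjusted p = 0.000549, edgeR). This call rests on few reads and was lost when only the libraries of HIF-2α KIN and WT were fitted (adjusted p = 0.0210, with a range of 7.52e-05 to 0.0210 over the alternatives).

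In the 6 lines with a transgene PLAT was higher in every library than in any WT library. The HIF-1α line held 137, 114 and 131 counts, a log2 fold change of 2.38 (SE 0.392, adjusted p = 0.000138), and HIF-1α R30E held 63.7, 92.4 and 71.0, with 1.63 (SE 0.388, adjusted p = 0.00870). Of all genes, 3.78% and 2.61% were called in these comparisons. The R30E call was lost whenever any 1 of the 6 R30E and WT libraries was left out (log2 fold change 1.46 to 1.80) and also without the filter on low counts (adjusted p = 0.0130), so that over all alternatives its adjusted p ran from 2.60e-05 to 0.0704.

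PLAT levels above WT were also measured with the dimerization mutants. HIF-1αDM held 72.6, 75.1 and 69.6 counts and HIF-2αDM 96.9, 81.2 and 69.7, with log2 differences from WT of 1.56 and 1.75 that were not called (adjusted p = 0.0467 and 0.0203). DESeq2 called both, with adjusted p of 0.000310 and 2.36e-05. The HIF-2α line held 52.7, 56.4 and 48.6, a difference of 1.10 (adjusted p = 0.0615, and 0.00745 by DESeq2, a call), and its libraries overlapped those of HIF-2α R27E, at 42.7, 72.5 and 31.9. In the order of the means, HIF-1α stood above HIF-2αDM without overlap of libraries, followed by HIF-1α R30E, HIF-1αDM, HIF-2α, HIF-2α R27E, WT, HIF-1β KIN and HIF-2α KIN.

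The uPAR gene PLAUR was nearly as abundant as PLAU per kilobase, with 27.5 CPM/kb in WT cells of the first batch, and moved less. WT cells held 8182, 7969 and 8531 normalized counts and HIF-2α KIN 4882, 4393 and 3390. All 3 HIF-2α KIN libraries lay below WT, with a log2 difference of -0.96 (SE 0.174, adjusted p = 0.000355, edgeR) that passed the p threshold, with 5.90% of all genes, at just under a 2-fold change, and reached -1.08 and a call without the first HIF-2α KIN library. The HIF-1α line, at 4857, 4748 and 6188 counts, differed from WT by -0.64 (adjusted p = 0.0175). The other 6 groups had means of 5770 to 8409 and log2 differences of -0.51 to 0.03, none past the p threshold. In the order of means, the libraries of each group overlapped those of the next for all 9 groups of the batch.

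The inhibitor gene SERPINE2 ran the other way from PLAU. WT cells held 1445, 1202 and 869 normalized counts, the lowest mean of the 9 groups, and HIF-2α KIN 3822, 4188 and 2721, the highest. The HIF-2α KIN libraries all lay above those of every other group, and the share of all genes that did so was not counted. They lay above WT alone for 11.6% of all genes. SERPINE2 was higher in HIF-2α KIN than in WT cells by 1.61 on the log2 scale (SE 0.199, adjusted p = 1.98e-06, edgeR). HIF-1α R30E, at 2250, 2580 and 2200, was called as well at the very edge of the fold threshold, with 1.00 (SE 0.196, adjusted p = 0.00134). That call was lost without the third WT library (0.82) or without the second R30E library (0.93). The comparisons of HIF-2α KIN and HIF-1α R30E with WT called 4.11% and 2.61% of all genes.

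The HIF-1α and HIF-2α lines passed the p threshold for SERPINE2 at less than 2-fold (4.83% and 8.07% of all genes passed it), with 0.87 (adjusted p = 0.00398) and 0.93 (adjusted p = 0.00141), from 2528, 2187 and 1708 and from 2355, 2465 and 1883 counts. HIF-1β KIN differed by 0.84 (adjusted p = 0.0122). HIF-1αDM, HIF-2α R27E and HIF-2αDM had means of 1546 to 1612 and differences of 0.40 to 0.46, none past the p threshold (adjusted p 0.487 to 0.682). Leaving out the first WT library brought HIF-1β KIN, HIF-1α and HIF-2α to 1.02, 1.05 and 1.11, all then called, and without library 3 of the line itself HIF-1α and HIF-2α were at 1.01 and 1.03, also calls.

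Of the 32 tests of members against WT in the first batch, 7 were calls, 3 of them lower and 4 higher, and 3 of the 7 were in HIF-2α KIN. The calls lay in HIF-2α KIN, HIF-1α, HIF-1α R30E and HIF-2α, in which 4.11%, 3.78%, 2.61% and 5.73% of all genes were called. The median log2 difference of the 4 members tested was -1.23 in HIF-2α KIN, where that over all genes was -0.05. It covers values from -2.55 in PLAT to 1.61 in SERPINE2, so the members did not fall together. In the other lines of the batch the median of the members ranged from -0.35 in HIF-1β KIN to 0.36 in HIF-2α. No member was called in HIF-1β KIN, HIF-1αDM, HIF-2α R27E or HIF-2αDM, in which 1.37%, 0.431%, 0.483% and 0.470% of all genes were. The clones compared with each other gave no call with edgeR either, against 2.44% of all genes, while DESeq2 called PLAT (adjusted p = 0.00623). Against HIF-1β KIN, the PLAUR difference of HIF-2α KIN was -0.82 (interval -1.18 to -0.47, adjusted p = 0.00303, under 2-fold, where 3.34% of all genes passed the p threshold), that of PLAT -1.99 (interval -3.00 to -0.98, adjusted p = 0.0117) and that of SERPINE2 0.77 (interval 0.37 to 1.17, adjusted p = 0.0138). Without the first HIF-1β KIN library, which held 5.45 PLAT counts beside 21.4 and 22.3, the PLAT difference was -2.39 and was called.

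**Figure D2:**
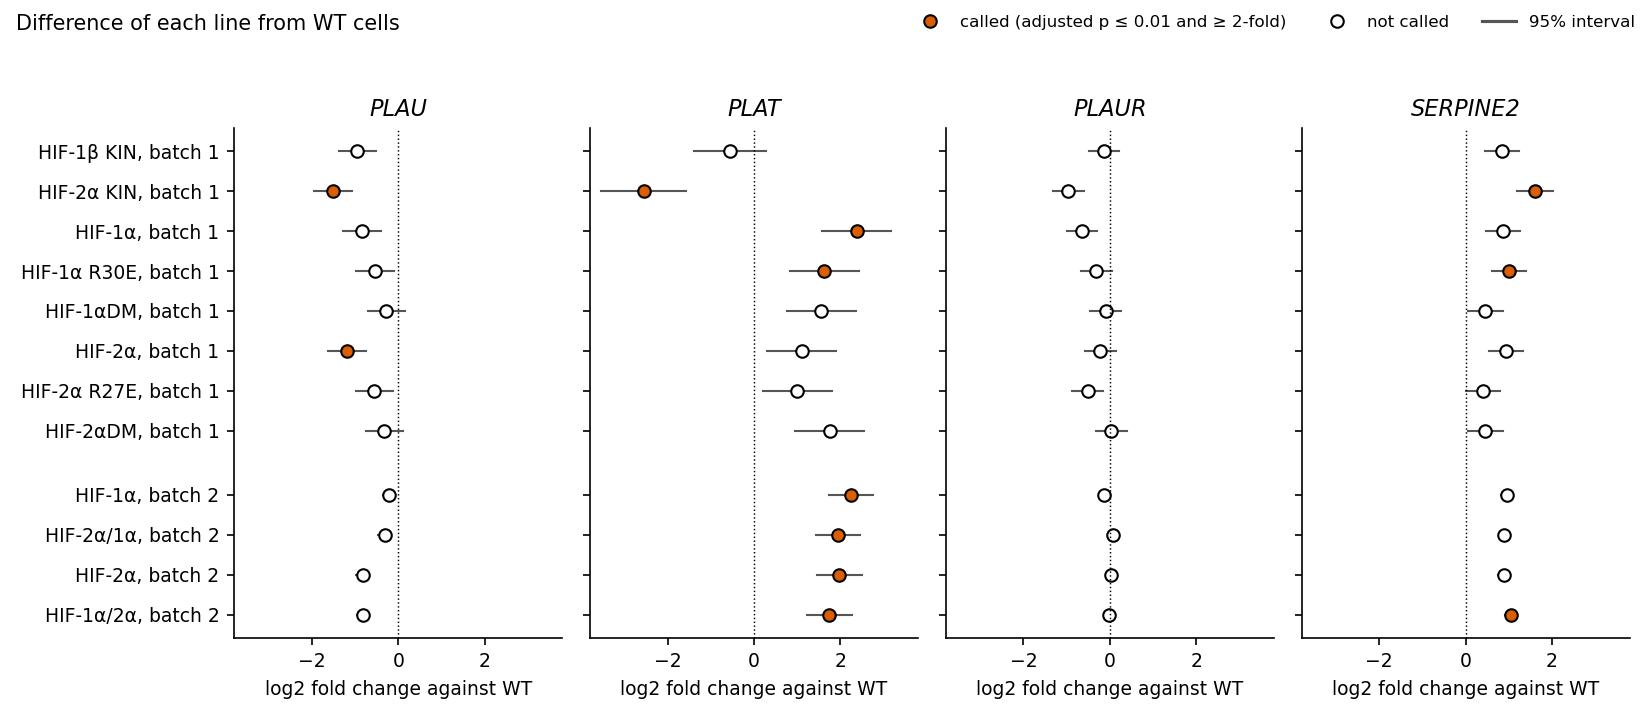
Log2 fold change against the WT cells of the same batch (horizontal axes) of 4 genes in 12 comparisons, with 95% intervals from edgeR and filled points for calls. PLAU lies below 0 and SERPINE2 above 0 in all 12, PLAT lies above 0 in all but the 2 knock-in clones, and PLAUR lies between -0.14 and 0.07 in the second batch.

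Over both batches, PLAU was below WT in 12 of 12 comparisons, with no overlap of libraries in 10, and SERPINE2 above WT in 12 of 12, with no overlap in 11. The HIF-1α and HIF-2α lines enter in both batches and the lines of a batch share their WT libraries, so these are 10 distinct lines and not 12 independent comparisons. How many of all genes lay on the same side of WT in all 12 was not counted, so how unusual this is cannot be said. The shares that follow are for single comparisons. Taking from the first batch the HIF-1β clone, the HIF-2α clone, the line with HIF-1α, its R30E and DM mutants, the line with HIF-2α, its R27E and DM mutants, and from the second HIF-1α, the chimera HIF-2α/1α, the HIF-2α line and the chimera HIF-1α/2α, every library of the line lay below WT for 9.92%, 14.5%, 12.1%, 10.2%, 7.68%, 16.7%, 4.92%, 8.87%, 17.1%, 17.3%, 21.5% and 20.5% of all genes. In the same order, every library lay above WT for 7.96%, 11.6%, 13.1%, 9.93%, 8.27%, 15.1%, 6.06%, 7.70%, 18.8%, 17.1%, 21.6% and 21.5% of all genes. PLAT was above WT without overlap in 10 of 12 comparisons, and PLAUR below without overlap in 5, all in the first batch.

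Because PLAU and SERPINE2 moved apart, their ratio within a library, which no scaling between libraries can shift, spread widely. The level of PLAU over that of SERPINE2, per kilobase and on the log2 scale, was 4.06, 4.14 and 4.39 in the WT libraries of the first batch and 1.19, 0.95 and 1.05 in HIF-2α KIN. The lines with HIF-1αDM, HIF-2α R27E and HIF-2αDM had mean log2 ratios of 3.43, 3.15 and 3.40, those with HIF-1α, HIF-1α R30E and HIF-2α 2.48, 2.63 and 2.07. Every library of the 8 lines lay below every WT library. PLAU stood above PLAUR in WT cells (mean log2 ratio 0.35, SD 0.238) and below it in the HIF-2α line (-0.61, SD 0.0801), HIF-1β KIN (-0.45, SD 0.114) and HIF-2α KIN (-0.19, SD 0.0752). These ratios are given as descriptions, with no test. Reads in the stretch that PLAU shares with C10orf55 are not in them, so PLAU may stand too low against SERPINE2 and PLAUR.

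**Figure D3:**
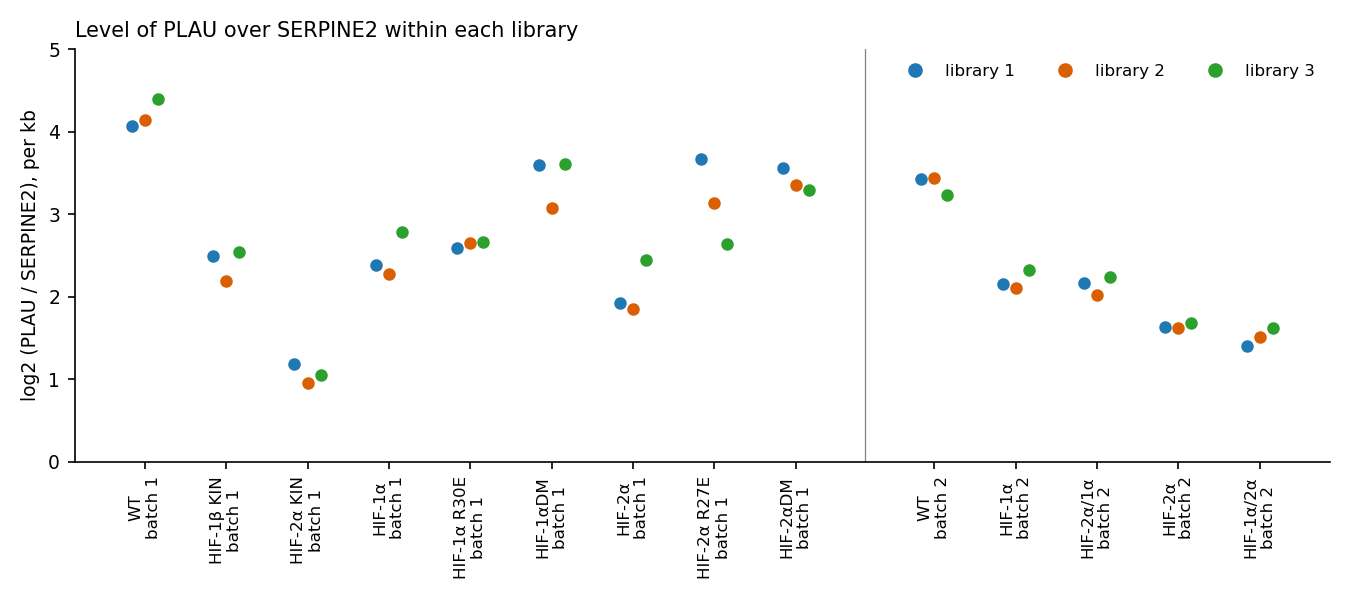
Log2 ratio of the PLAU level to the SERPINE2 level, both per kilobase of exon, in each of 42 libraries (1 point each), with the first batch left of the grey line and the second right of it. WT libraries are the highest of their batch, at 4.06 to 4.39 and at 3.23 to 3.43, and HIF-2α KIN the lowest, at 0.95 to 1.19.

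SERPINB2, which encodes PAI-2, was near absent in the first batch. It had 5 reads in all over 27 libraries, from 3 libraries with 3, 1 and 1, and fell below the limit of a mean of 0.5 normalized counts, so that it was not tested there. At this depth a level under 3 reads per library, 2.09 to 4.79 normalized counts, could not be told from 0. This floor covers counting error only.

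The second batch exchanged the structured part and the IDR between HIF-1α and HIF-2α, and addressed which of them sets the response of a gene. PLAU levels separated by IDR. WT cells held 9273, 8939 and 9059 normalized counts, HIF-1α 7307, 7349 and 8893, and HIF-2α/1α, which also carries the HIF-1α IDR, 7410, 6601 and 7926. The lines with the HIF-2α IDR were lower, at 5008, 4734 and 5696 in HIF-2α and 4865, 4995 and 5631 in HIF-1α/2α, and their libraries overlapped each other but none of another group. The share of all genes with this pattern was not counted. Such gaps are common here, as all HIF-2α libraries lay below all HIF-1α libraries for 19.9% of all genes.

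Against WT, PLAU differed by -0.82 in HIF-2α (SE 0.0717, adjusted p = 3.63e-13, edgeR) and by -0.82 in HIF-1α/2α (SE 0.0716, adjusted p = 4.17e-13), and by -0.31 in HIF-2α/1α (adjusted p = 0.000599) and -0.21 in HIF-1α (adjusted p = 0.0235). The mean of the 2 lines with the HIF-2α IDR was below that of the 2 with the HIF-1α IDR by 0.56 on the log2 scale (interval -0.66 to -0.45, adjusted p = 1.60e-12). With 2 lines for each IDR, this p-value measures the spread between libraries and not between lines. Levels of the transgene transcripts can be read only in part. Mean HIF1A counts were 13251.5 in HIF-1α, 9590 in HIF-2α/1α and 9685 in HIF-1α/2α. Mean EPAS1 counts were 42312 in HIF-2α, 51172.5 in HIF-1α/2α and 20668 in HIF-2α/1α. A chimera carries only a part of each gene, and the EPAS1 counts include endogenous transcript (12693 in WT cells). These counts therefore do not rank the lines by transgene level. A part of transgene levels in the PLAU differences was not tested. Swapping the IDR on the HIF-1α structured domain gave -0.60 (adjusted p = 2.99e-09) and on the HIF-2α structured domain -0.51 (adjusted p = 2.48e-07), and these did not differ detectably (interaction 0.10, interval -0.11 to 0.30, adjusted p = 0.651). The structured domain gave -0.05 (interval -0.16 to 0.05, adjusted p = 0.553). None of these PLAU differences reached 2-fold, so none was a call. By the p threshold alone, 27.5%, 28.0%, 17.2% and 17.1% of all 28724 genes passed when WT was compared with the HIF-2α line, HIF-1α/2α, HIF-2α/1α and the HIF-1α line, in this order, 24.8% for the IDR, 20.3% and 16.1% for the single swaps and 11.4% for the structured domain. Calls made up 4.41%, 4.69%, 3.18% and 1.04% of all genes for these domain contrasts and 1.18% for the interaction, and no member was called in any of them.

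**Figure D4:**
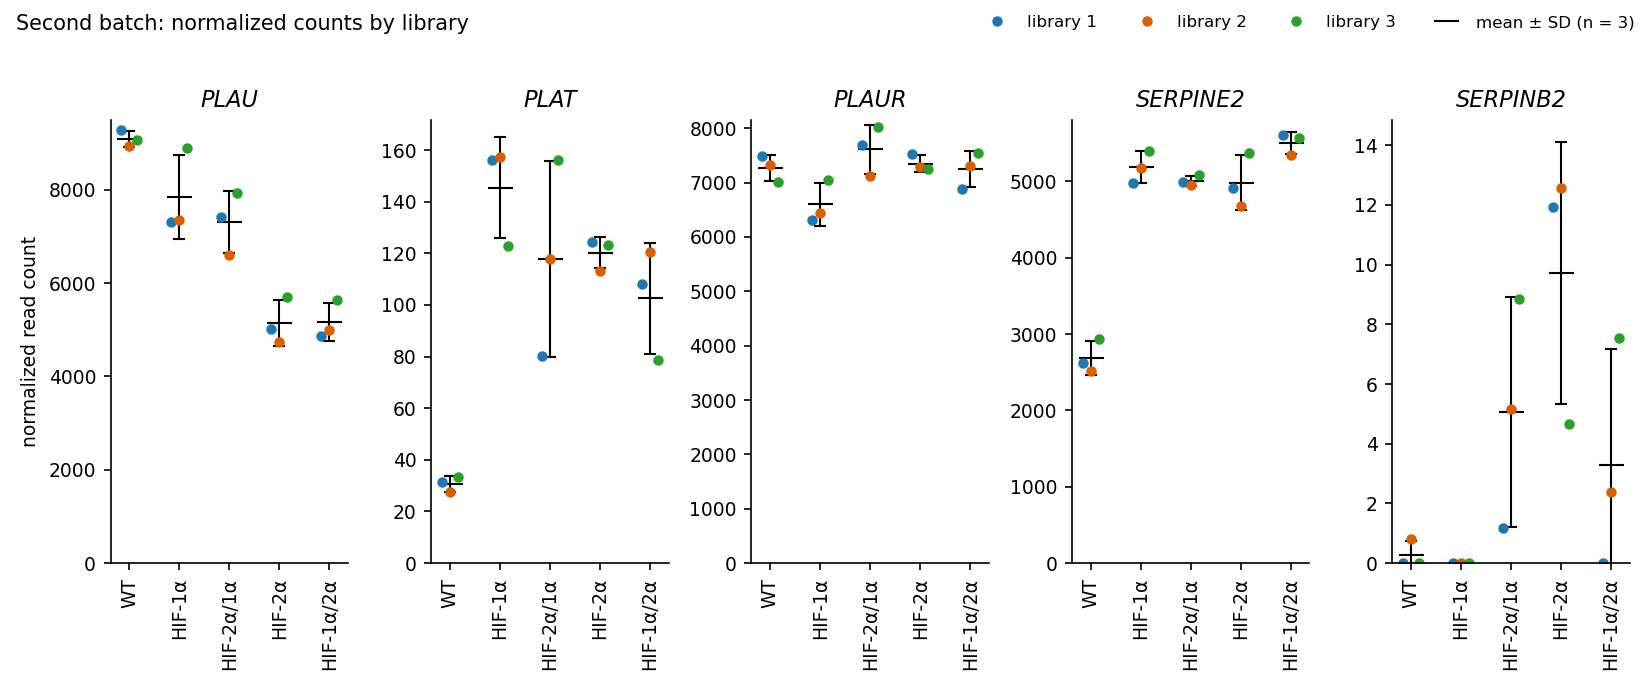
Normalized read counts of 5 genes (vertical axes, each from 0) in the 5 groups of the second batch, with 1 point per library and bars for the mean ± SD of 3 libraries. PLAU lies between 4734 and 5696 in the 2 lines with the HIF-2α IDR and between 6601 and 8893 in the 2 with the HIF-1α IDR, while PLAT and SERPINE2 are higher than WT in all 4 lines and SERPINB2 stays under 13 counts.

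PLAT rose in all 4 lines of the second batch, and no domain contrast passed the p threshold for it. WT cells held 31.3, 27.4 and 33.2 normalized counts and HIF-1α 156, 157 and 123. HIF-2α held 124, 113 and 123, HIF-2α/1α 80.0, 118 and 156, and HIF-1α/2α 108, 121 and 78.6. The log2 fold changes were 2.25 in HIF-1α, 1.97 in HIF-2α, 1.95 in HIF-2α/1α and 1.74 in HIF-1α/2α, with SE of 0.252 to 0.256 and adjusted p of 9.96e-10 to 2.29e-07 (edgeR). All 4 were calls under every alternative tried, in comparisons that called 4.39%, 7.55%, 3.48% and 7.72% of all genes. In the order of their means the libraries of neighbouring lines overlapped. The HIF-1α/2α libraries all lay below those of HIF-1α, and the share of all genes that did so was not counted. This exchange of the IDR on the HIF-1α structured domain gave -0.50 (interval -0.96 to -0.05, adjusted p = 0.1002). The IDR effect was -0.24 (interval -0.56 to 0.08, adjusted p = 0.288) and the structured-domain effect -0.03 (interval -0.36 to 0.29, adjusted p = 0.944).

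SERPINE2 was close to 2-fold higher in the same 4 lines. WT cells held 2615, 2514 and 2933 normalized counts, HIF-1α 4980, 5182 and 5402, HIF-2α/1α 4996, 4951 and 5083, HIF-2α 4910, 4675 and 5373, and HIF-1α/2α 5612, 5342 and 5566. The log2 differences were 0.95, 0.90, 0.89 and 1.04, with SE of 0.0635 to 0.0636 and adjusted p of at most 1.65e-15 (edgeR), and only the last, in HIF-1α/2α, reached the fold threshold. Without the WT library numbered 3, HIF-1α reached it as well, at 1.02. Libraries of HIF-1α/2α and HIF-1α overlapped, and no domain exchange passed the p threshold for SERPINE2 (IDR effect 0.04, interval -0.05 to 0.13, structured-domain effect -0.10, interval -0.19 to -0.01, adjusted p = 0.564 and 0.138).

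PLAUR, in contrast, stayed between 6316 and 8019 normalized counts in all 15 libraries of the second batch. Its log2 differences from WT were -0.14 in HIF-1α (interval -0.26 to -0.02), 0.07 in HIF-2α/1α (interval -0.05 to 0.18), 0.02 in HIF-2α (interval -0.10 to 0.13) and -0.01 in HIF-1α/2α (interval -0.12 to 0.11), with adjusted p of 0.0753 to 0.974. HIF-2α differed from HIF-1α by 0.16 (adjusted p = 0.0427), which did not pass the p threshold.

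**Figure D5:**
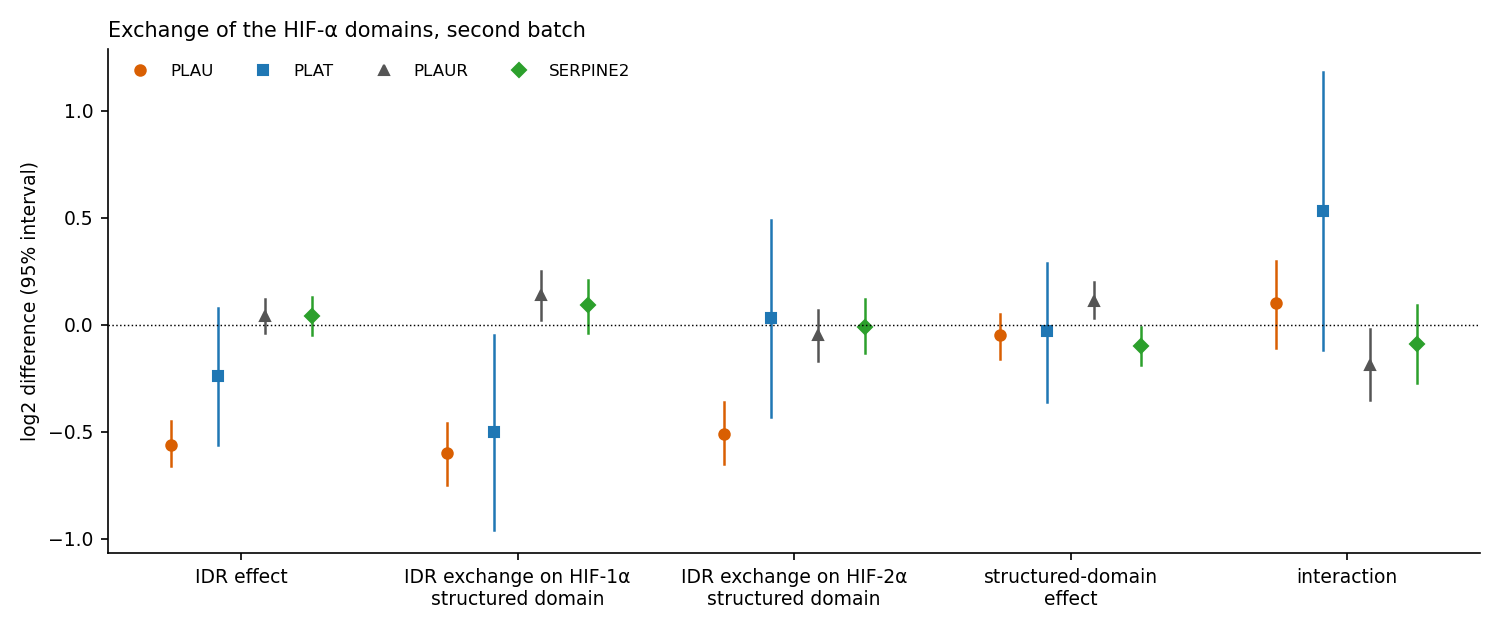
Log2 differences with 95% intervals (vertical axis) for 4 genes and 5 contrasts of the second batch, where the IDR and structured-domain effects are HIF-2α minus HIF-1α and the interaction is the difference between the single IDR exchanges. PLAU lies at -0.56, -0.60 and -0.51 in the contrasts of the IDR and at -0.05 for the structured domain.

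SERPINB2 had a few reads per library in the second batch, and of its 4 comparisons with WT only that of HIF-2α was called. The WT libraries had 0, 1 and 0 reads and the HIF-1α libraries none. HIF-2α had 12, 11 and 4 reads, HIF-2α/1α 1, 6 and 8, and HIF-1α/2α 0, 2 and 7. Summed over libraries, the ratio to the single WT read was 32.1 in HIF-2α (95% exact counting interval 5.29 to 1313), 16.7 in HIF-2α/1α (2.58 to 705) and 9.82 in HIF-1α/2α (1.36 to 430). These intervals cover counting error only. Between libraries, neither chimera passed the p threshold against WT (adjusted p = 0.0630 in HIF-2α/1α and 0.119 in HIF-1α/2α, edgeR), and the libraries of HIF-1α/2α overlapped those of WT. The IDR and structured-domain effects on SERPINB2 were not called either (adjusted p = 0.0297 and 0.0133). Against HIF-1α, where no read was seen, HIF-2α was at least 3.19-fold higher, with the floor of 3 reads per library as the lower level. HIF-2α was called against WT (adjusted p = 0.00950, edgeR) and against HIF-1α (adjusted p = 0.00360), where 3.79% of all genes were called. Both calls were lost without any 1 of 5 of the 6 libraries compared, and DESeq2 did not make the first (adjusted p = 0.0112).

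HIF-2α against HIF-1α was compared in both batches. In the first, no member was called, against 2.40% of all genes, and the largest difference was in PLAT, lower in HIF-2α by 1.28 (interval -2.06 to -0.50, adjusted p = 0.0480, edgeR), which DESeq2 called (adjusted p = 0.00194). In the second, PLAU was lower in HIF-2α by 0.61 (interval -0.75 to -0.46, adjusted p = 2.89e-09), under 2-fold and past the p threshold with 17.9% of all genes, and SERPINB2 was the only call. The PLAU difference in the first batch was -0.34 (interval -0.77 to 0.09, adjusted p = 0.488), so that the intervals overlap. SERPINE2 differed by 0.06 (interval -0.34 to 0.46) in the first batch and by -0.06 (interval -0.18 to 0.07) in the second.

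The HIF-1α and HIF-2α lines were sequenced in both batches, with different RNA extraction and library kits, and their responses were compared in a joint fit. No difference of response passed the p threshold for any member (smallest adjusted p 0.505 in 9 tests, edgeR, of which 3 had an unadjusted p under 0.05). Of all 26763 genes, 0.00374%, 1 gene, was called for HIF-1α and 0 for HIF-2α. That gene was HIF1A itself, whose response was 1.80 larger in the second batch (interval 1.32 to 2.29, adjusted p = 0.00328, edgeR). The HIF-1α responses are thus compared at unlike levels of HIF1A transcript. DESeq2 called no member either. The 3 tests with an unadjusted p under 0.05 were PLAT in HIF-2α, whose response was 0.81 larger in the second batch (interval 0.07 to 1.55, adjusted p = 0.505), and PLAU and PLAUR in HIF-1α, whose responses were less negative there by 0.58 (interval 0.22 to 0.95) and 0.46 (interval 0.12 to 0.80, adjusted p = 1.00 for both).

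A wider list of 28 genes of the pathway set the members in context: plasminogen and its binding proteins, other proteases, other inhibitors, and clearance receptors with receptor partners. In the first batch 22 of them could be tested and in the second 25, while PLG, the plasminogen gene, LRP2 and HPN had too few reads in both. Of the 276 tests against WT, 24 were calls, where single comparisons called between 0.431% and 7.72% of all genes. In the first batch 4 of the 22 genes tested were called in HIF-1α (3.78% of all genes), 6 in HIF-2α (5.73%), 1 in HIF-2α KIN (4.11%) and 0 in the other lines. In the second batch 3 of 25 were called in HIF-1α (4.39%), 2 in HIF-2α/1α (3.48%), 5 in HIF-2α (7.55%) and 3 in HIF-1α/2α (7.72%). Of the 24 calls, 12 were in LRP1 and SORL1, receptors that take up complexes of the activators with their inhibitors.

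LRP1 rose in all 6 comparisons of a functional HIF-α or a chimera with WT and fell in HIF-2α KIN. Its mean was 6323 ± 543 normalized counts in WT cells of the first batch, 24564 ± 8010 in the HIF-1α line, 28620 ± 2264 in the HIF-2α line and 3123 ± 231 in HIF-2α KIN (SD, n = 3). The log2 fold changes were 1.96, 2.18 and -1.02 (adjusted p = 7.69e-07, 8.18e-08 and 0.00238, edgeR). In the second batch they were 1.62 in HIF-1α, 1.60 in HIF-2α/1α, 2.13 in HIF-2α and 1.21 in HIF-1α/2α, with adjusted p of at most 1.29e-15. SORL1 was called in HIF-1α and HIF-2α of both batches and in HIF-1α/2α, with log2 fold changes of 2.01 to 3.05.

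The other named genes of the list were called in 1 or 2 lines each. ITGA5, an integrin subunit that binds uPAR, was higher in the HIF-2α line of the first batch (1.15, adjusted p = 1.06e-05), as was S100A10, which forms a plasminogen-binding complex with annexin A2 (1.03, adjusted p = 1.48e-05). F12, coagulation factor XII, was lower in HIF-2α of the second batch (-1.20, adjusted p = 1.60e-14). ST14, the membrane protease matriptase, was higher in HIF-1α of the first batch (1.86, adjusted p = 0.00276) and lower in HIF-1α/2α of the second (-1.83, adjusted p = 0.000835). SERPING1 and SERPINA5 made up the remaining 7 calls at means under 50 normalized counts. The plasminogen receptor genes ENO1, ANXA2, KRT8 and PLGRKT were called in no line. Neither was the gene of vitronectin (VTN), a matrix ligand of uPAR. Its mean in the first batch was only 2.27 normalized counts, near the floor, so the lack of a call there says little.

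Among 12461 genes with a mean of at least 50 normalized counts in both batches, those whose 12 differences from WT followed a member's most closely were named by Pearson's r. The 12 points share 2 sets of WT libraries, and r is a description. For PLAU they were PDCD1LG2 (0.932), EPPK1 (0.911) and TSTA3 (0.898), and for SERPINE2 THRA (0.932), ADGRG2 (0.925) and BBS5 (0.889). For PLAT they were AC005077.4 (0.973), MMP16 (0.954) and WDR81 (0.946), and for PLAUR IL6 (0.955), POLR3D (0.949) and POGLUT1 (0.928).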

How the data were processed

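Poly-A RNA-seq libraries were analysed from 14 groups in 2 batches, 3 biological replicates to a group. Per the labels and the methods of the study, the authors aligned reads to hg38 with STAR, kept reads with a single position, and deposited raw counts per gene from HTSeq, made without strand on GENCODE genes. The submitters' processing notes name STAR 2.7 and HTSeq 0.11.1, the methods of the study other versions of both, and which were used is not known here. Reads that match near-identical copies are thus lost. RNA extraction and library kits differed between the batches, which cannot be told apart from them, so each batch was normalized and tested on its own.

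Here, counts were scaled by TMM (factors 0.810 to 1.15 and 0.960 to 1.03) to the mean effective library size of the batch as normalized counts. Genes with a mean of at least 0.5 normalized counts, 23410 and 28724 of 60609, were tested with edgeR 4.0.16 (quasi-likelihood test, R 4.3.3) over all groups of the batch, and p-values were adjusted by Benjamini-Hochberg over all of them. Intervals are 95%. The p-values measure the spread between libraries of a line. Levels per kilobase are CPM divided by exon length in kilobases. The IDR and structured-domain effects are averages over the other domain. A level of 0 was set against a floor of 3 counts.

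The 5 genes and the wider list were chosen with earlier results of these data known. Named were all members, genes of the wider list called at least once with a batch mean of at least 50 normalized counts, the targeted genes, genes overlapping a member and the 3 genes most like each member. Alternatives were DESeq2 1.42.0, other size factors, no filter on low counts, only the groups compared, a replicate block, another call rule and each library left out. Promoter windows came from RefSeq tables (GRCh38.p14), in which 4 of the 5 members had an entry and PLAT had none. The scripts were tested on simulated data.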

Additional observations from a re-analysis of the deposited data

How the results depend on the processing

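With calls at an adjusted p of at most 0.05 and no minimum fold, the members' calls against WT went from 7 to 16 (first batch) and from 6 to 13 (second batch), those of functional against mutant HIF-α from 0 to 1, of HIF-2α against HIF-1α from 1 to 4, of the 2 clones from 0 to 3, of the domain effects from 0 to 7 and of the wider list from 24 to 73. The share of all genes that passes this wider rule was not counted. By the stricter p threshold of the main calls alone, 0.449% to 8.07% of all genes passed against WT in the first batch. In the second batch 17.1% to 28.0% did so against WT, and 5.39% to 24.8% for the domain effects. The rise in calls thus cannot be told apart from a rise over all genes. DESeq2 gave 2 calls for HIF-2α against HIF-1α and 1 for the clones. Without the filter on low counts the domain effects gave 1 call, SERPINB2. Left out 1 at a time, libraries gave 5 to 9 and 5 to 6 calls against WT, 0 to 1 for HIF-2α against HIF-1α, for the clones and for the domain effects, and 21 to 26 for the wider list. The clones gave the call, in PLAT, without HIF-1β KIN 1 or either of R27E 2 and 3, and the domain effects theirs, in SERPINB2, without HIF-2α/1α 1 or HIF-1α/2α 3. The cause of these changes was not tested. The median of all genes moved by -0.023 to 0.055 on the log2 scale with other size factors in edgeR and by -0.063 to 0.077 with DESeq2.

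Leaving out 1 library turned the sign of small differences, none of them called. PLAUR ranged from -0.23 to 0.03 in HIF-1αDM and -0.03 to 0.11 in HIF-2αDM against WT, from -0.02 to 0.05 in HIF-1α/2α and from -0.09 to 0.01 for the IDR on HIF-2α. SERPINE2 ranged from -0.08 to 0.20 and -0.10 to 0.01 for HIF-2α against HIF-1α in the 2 batches, from -0.27 to 0.01 for HIF-1α against R30E and from -0.06 to 0.05 for the IDR on HIF-2α. PLAT ranged from -0.16 to 0.49 for HIF-2α against R27E, -0.15 to 0.08 for the structured domain and -0.17 to 0.29 for the IDR on HIF-2α, and PLAU from -0.09 to 0.01 for the structured domain. Without all libraries numbered 3 of the first batch, chosen after seeing the data, PLAT for HIF-2α against R27E was -0.09 in place of 0.10, and in HIF-1α R30E against WT the calls of PLAT (1.71, adjusted p = 0.0329, edgeR) and SERPINE2 (0.89, under 2-fold) were lost.

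Replicate numbers were treated as a shared number only. In the first batch 91 of 108 same-numbered pairs correlated above 0.1 in their deviations from group means and 24 of 27 libraries correlated best with their own number, against 0 of 30 and 9 of 15 in the second. With the replicate block the clones gave 1 call (PLAT, -1.97, adjusted p = 0.00946, edgeR) and the domain effects 1 (SERPINB2). The block also called PLAT in HIF-2αDM (1.74, adjusted p = 0.00380). At this depth, PLAT and SERPINB2 values rest on few reads.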
